A study of Rattus norvegicus with 10 samples.

Results

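The 9 genes described here encode the pore-forming subunits of the AMPA receptor (Gria1, Gria2, Gria3 and Gria4) and subunits of the NMDA receptor (Grin1, Grin2a, Grin2b, Grin2c and Grin3a). They were chosen by name, and all 9 were measured both in the bulk table of 14166 genes and in the nucleus matrices of 25399 gene names. Both receptors are glutamate-gated cation channels built from subunits around a central pore. AMPA receptors carry most fast excitatory transmission, and an edited Gria2 subunit keeps calcium from passing. NMDA receptors need the obligatory Grin1 subunit, open only when glutamate and a co-agonist bind while the membrane is depolarized, and admit calcium. Their kinetics depend on which Grin2 subunit joins Grin1. In the dentate gyrus, both receptors receive the perforant path input onto granule neurons.

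The tissue was the ipsilateral dentate gyrus of male Sprague Dawley rats. TBI rats had a craniectomy and, on a later day, a moderate lateral fluid percussion injury, in which a pulse of fluid strikes the intact dura, and the tissue was taken 3 weeks after it. Sham rats had the same surgery without the pulse, and the naïve rat had no surgery. Bulk poly(A) RNA was sequenced from 3 TBI and 3 sham rats, and nuclei were sequenced from 2 TBI rats, 1 sham rat and 1 naïve rat. The sham and naïve rats served together as controls of the nuclei, so that surgery was present in 1 of 2 controls. Each library came from a single rat, so errors are the spread between rats of 1 sex at 1 time after injury.

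Bulk libraries held 24730280 to 43912249 estimated counts assigned to genes. Of 55863 deposited nuclei, 55124 passed the filters on quality, with a median of 1647 to 2652 UMIs (unique molecular identifiers, each standing for 1 captured RNA molecule) per nucleus in a library. Clusters were named from marker genes and are called by cell type with "-like". Granule-neuron-like nuclei were 44.6% to 64.0% of each library, and 2995 nuclei (5.43%) stayed unnamed. In the bulk libraries, the summed level of 7 granule neuron markers ran from 128 to 560 CPM (counts scaled to a common library total) without following the groups, the oligodendrocyte markers were highest in sham 2 (17730 CPM against 5237 to 8270 in the others), and fibroblast markers were highest in TBI 3 (826 CPM against 33.1 to 152 in the others). Any 2 nucleus libraries shared 45 to 60 barcodes. The nucleus matrices also held entries written out with a value of 0, which were 1.62% of the entries in TBI 1, 27.4% in TBI 2, 11.1% in sham and 15.5% in naïve.

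The first question was which cells carried each subunit message. Levels are CPM of the UMIs summed over the nuclei of a class in 1 rat, given as mean ± SD over the 4 rats. Since nuclear counts include introns and genes differ in length, levels are compared between classes for 1 gene and not between genes. The classes were built from the same nuclei, so these comparisons are descriptions, although the 9 genes were kept out of the features used to cluster.

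Among the AMPA receptor genes, Gria1 and Gria4 were highest in GABAergic-like nuclei. Gria1, whose subunit traffics to synapses during potentiation, was 2796 ± 163 CPM (SD, n = 4) there, with 2767 in TBI 1, 2737 in TBI 2, 3029 in sham and 2652 in naïve. Every rat's value lay above those of all rats in the next class, the other glutamatergic-like nuclei (2123 ± 399 CPM). Granule-like and immature-neuron-like nuclei followed at 1681 ± 245 and 1515 ± 197 CPM, with overlapping ranges. Gria4, a subunit of fast receptors in interneurons, was 2733 ± 326 CPM in GABAergic-like nuclei. Oligodendrocyte-precursor-like nuclei came next with 1320 ± 149 CPM and then granule-like nuclei with 980 ± 49.7 CPM, and none of these 3 ranges overlapped. The other glutamatergic-like nuclei had the lowest Gria4 level of all 11 named classes, 227 ± 106 CPM.

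Gria2 and Gria3 were spread more evenly. Gria2 was highest in immature-neuron-like nuclei (3524 ± 365 CPM), followed by granule-like (3086 ± 290), other glutamatergic-like (2734 ± 202) and oligodendrocyte-precursor-like nuclei (2412 ± 178), and each of these overlapped its neighbour in the order. GABAergic-like nuclei had less Gria2, 1731 ± 93.2 CPM, which was 56.1% of the granule-like level. For Gria1 and Gria4 the same comparison with granule-like nuclei gave 166% and 279%. Gria3 did not separate granule-like (877 ± 67.5 CPM), other glutamatergic-like (868 ± 80.3) and oligodendrocyte-precursor-like nuclei (859 ± 37.8). GABAergic-like nuclei followed with 680 ± 77.4 CPM, below all rats of the granule-like and oligodendrocyte-precursor-like classes but overlapping the other glutamatergic-like nuclei.

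The NMDA receptor genes split into broad neuronal messages and 2 restricted ones. Grin1, the subunit every NMDA receptor contains, was 798 ± 104 CPM in other glutamatergic-like, 665 ± 58.7 in granule-like, 617 ± 48.9 in GABAergic-like and 587 ± 106 in immature-neuron-like nuclei, all overlapping. Grin2b, the subunit of slower receptors that prevail early in development, was highest in granule-like nuclei at 3320 ± 241 CPM, above all rats of the immature-neuron-like class (2893 ± 121). Grin2a, whose share among NMDA receptors grows as neurons mature, was highest in granule-like nuclei as well (846 ± 97.0 CPM), with overlap into other glutamatergic-like nuclei (681 ± 143).

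Grin2c marked astrocyte-like nuclei. It was 434 ± 51.4 CPM there, with 359 in TBI 1, 470 in TBI 2, 466 in sham and 441 in naïve. The lowest of these was above the highest value of the next class, endothelial-like nuclei (124 ± 43.6 CPM). The astrocyte markers summed to 2041 to 5031 CPM in those endothelial-like nuclei and to 4450 to 9020 CPM in astrocyte-like nuclei, and their part in the endothelial-like Grin2c level was not tested. Granule-like nuclei had 10.9, 2.00, 7.86 and 0.428 CPM in the same order of rats. Grin3a, a subunit that lowers calcium entry and magnesium block, was highest in oligodendrocyte-precursor-like nuclei, with 227 CPM in TBI 1, 247 in TBI 2, 227 in sham and 390 in naïve. GABAergic-like nuclei followed with 78.3 ± 5.63 CPM and no overlap, and committed-oligodendrocyte-precursor-like nuclei (68.7 ± 37.7 CPM) overlapped them. Granule-like nuclei had 4.21 ± 3.47 CPM of Grin3a.

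**Figure D1:**
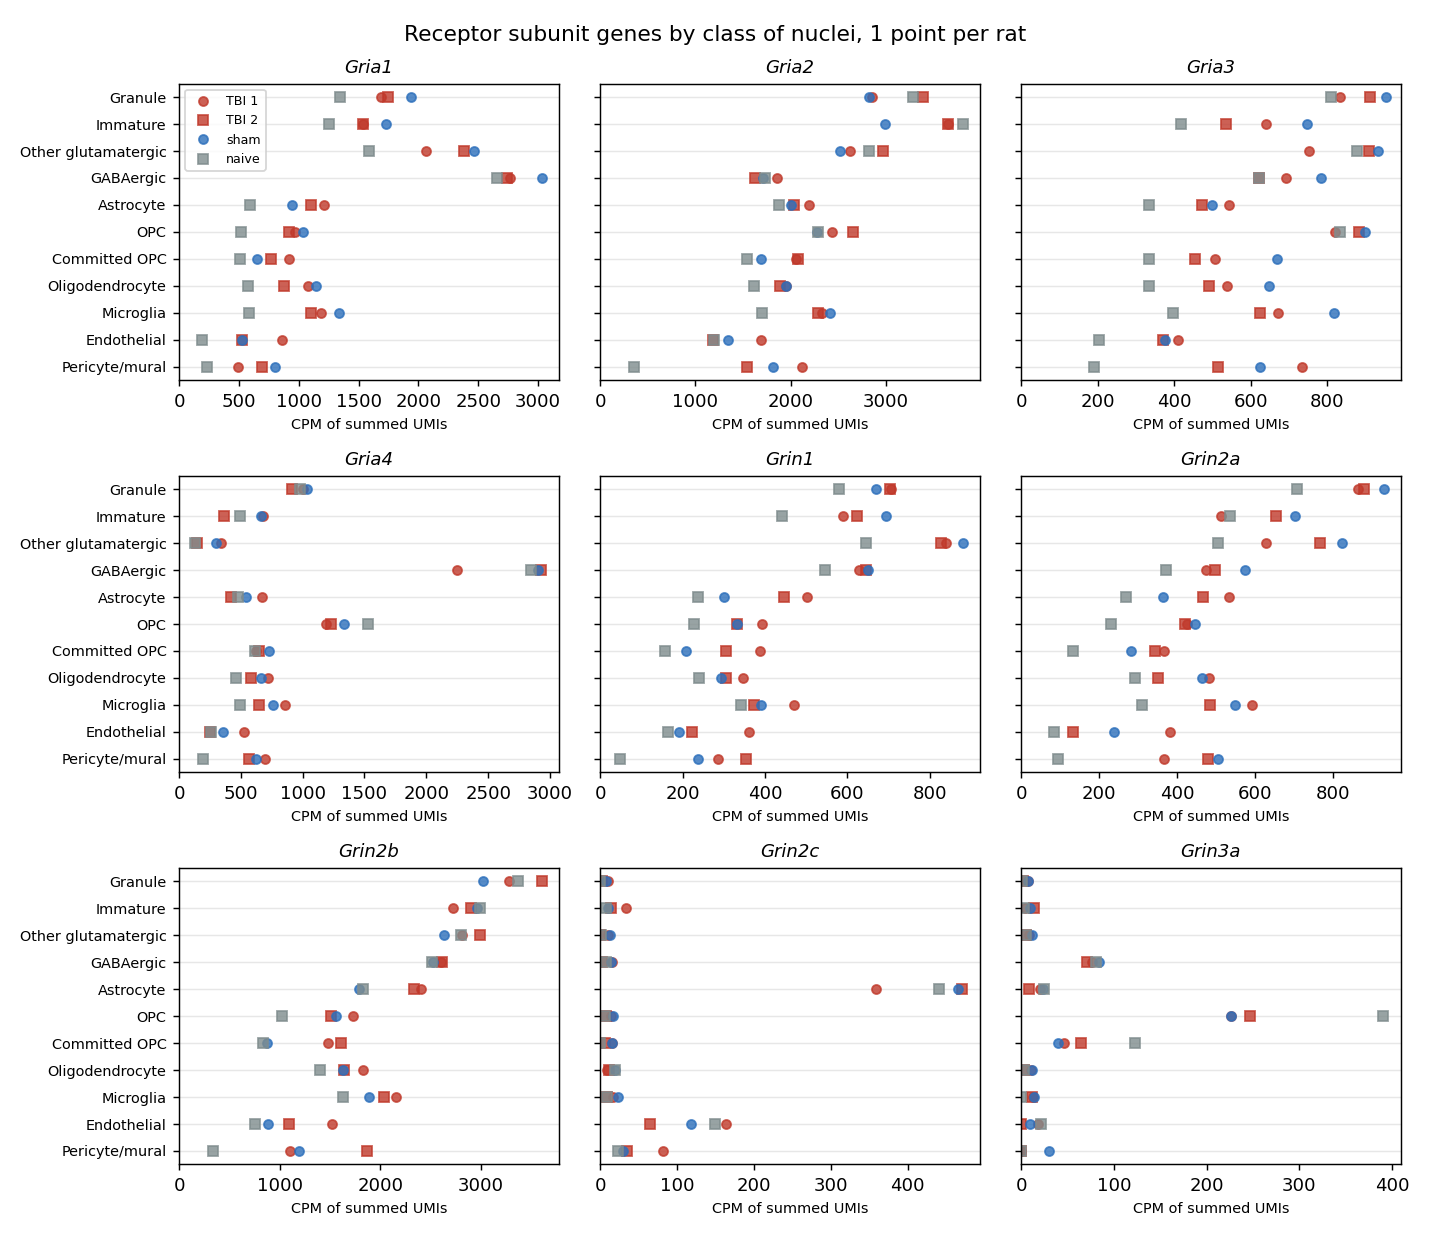
Each panel plots 1 gene, with the 11 named classes of nuclei on the vertical axis and CPM of summed UMIs on a linear horizontal axis, 1 point per rat (TBI 1 and TBI 2 red, sham blue, naïve grey). Grin2c stands out in astrocyte-like nuclei (434 ± 51.4 CPM), Grin3a in oligodendrocyte-precursor-like nuclei, and Gria1 and Gria4 in GABAergic-like nuclei, while the naïve rat often has the lowest value in glial and vascular classes.

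Levels of the broad neuronal members in glial classes need a background. RNA set free from lysed cells is captured with every nucleus, and nuclei can be captured in pairs. As a reference, 7 genes of granule or general neurons (Slc17a7, Prox1, Rbfox3, Snap25, Syt1, Nrgn and Camk2a) were read in the same classes. In microglia-like nuclei these ran from 53.3% to 127% of their granule-like level (median 69.6%), and the 7 members other than Grin2c and Grin3a from 57.2% to 71.6%. In oligodendrocyte-like nuclei the references ran from 44.6% to 93.5% (median 59.4%) and those members from 44.7% to 62.0%. In astrocyte-like nuclei the same members ran from 48.3% (Grin2a) to 65.7% (Gria2), beside a reference median of 57.3%. The 7 members were within the range of the reference genes in microglia-like and oligodendrocyte-like nuclei, where Nrgn set the top of that range (127% and 93.5%). Whether their levels there were background was not tested. In astrocyte-like nuclei, where the references ran from 54.7% to 126%, Gria3, Gria4 and Grin2a lay below that range and the other 4 within it. Whether these glial nuclei expressed the members themselves could not be told from these levels. The background itself differed between rats: the astrocyte markers summed to 407 CPM in the granule-like nuclei of TBI 1, 107 in TBI 2, 347 in sham and 104 in naïve. The sources used here do not say whether free RNA had been subtracted from the libraries, which also differed in their written-out zeros, and its part in these levels and in the differences between rats below was not tested.

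Microglia-like, oligodendrocyte-like and oligodendrocyte-precursor-like nuclei each included 1 cluster with more UMIs per nucleus than its library's median and with many high doublet scores (38.3%, 51.7% and 62.8% of its nuclei were among the top scores). Without those clusters, Grin2b in microglia-like nuclei fell from 1929 to 999 CPM and Grin1 from 395 to 203 CPM. In the remaining microglia-like nuclei Gria1 was 853 CPM in TBI 1, 628 in TBI 2, 999 in sham and 139 in naïve, so the naïve library carried the least. In oligodendrocyte-precursor-like nuclei the same step lowered Grin2b to 721 CPM, Grin2a to 181 CPM and Gria2 from 2412 to 2184 CPM. Gria3 was 859 CPM before and 857 CPM after it, and Gria4 (1320 and 1443 CPM) and Grin3a (to 373 CPM) were higher after it. Relative to granule-like nuclei, Gria3 (97.7%), Gria4 (147%) and Grin3a lay above the range of the 7 reference genes there (16.1% to 92.2%). Gria2 (70.8%), Grin1 (27.1%) and Grin2b (21.7%) lay within it, with Nrgn at its top and a reference median of 38.8%. Gria2 was above every reference gene but Nrgn and Snap25 (75.8%). Astrocyte-like nuclei were not part of this step. At clustering resolution 1 they too held clusters with more UMIs per nucleus, 1.67 and 1.84 times their library's median.

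Within the neuronal classes, the highest and lowest cluster differed by up to 4.72 times for interneurons and up to 1.41 times for granule neurons. The 3 GABAergic-like clusters led with Sst, with Npas1 and Vip, and with Lamp5. Gria1 was 4608 ± 321 CPM in the Sst cluster and 975 ± 254 CPM in the Npas1 cluster, a ratio of 4.72. Gria4 (3966 ± 508 against 1332 ± 130 CPM) and Gria3 (1087 ± 104 against 370 ± 79.2 CPM) had the same order in 4 of 4 rats. Gria2 had another order: the Npas1 cluster was highest (1961 ± 56.7 CPM), the Sst cluster next (1817 ± 118 CPM) and the Lamp5 cluster lowest (1333 ± 180 CPM). The Lamp5 cluster also had the most Grin2a, 689 ± 167 CPM, which was 2.01 times the Npas1 cluster, and the most Grin3a (110 ± 26.5 CPM).

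**Figure D2:**
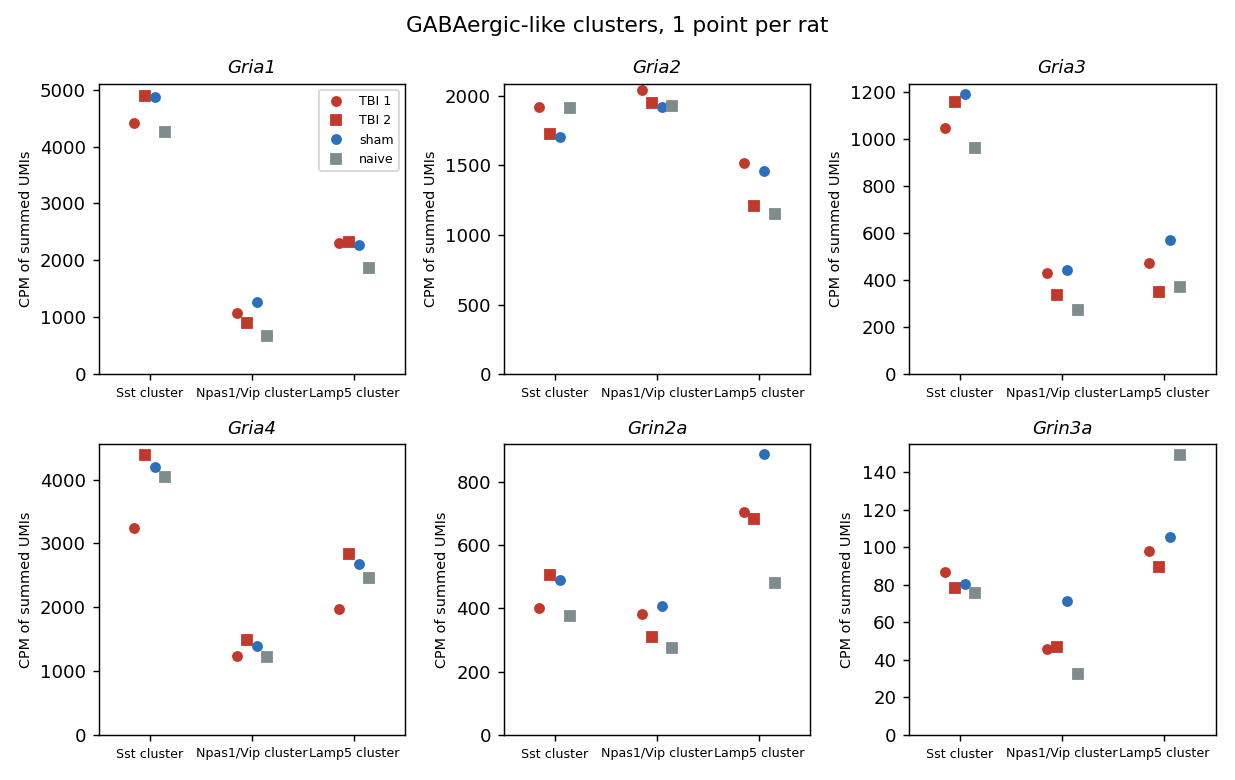
CPM of summed UMIs (vertical axis, from 0) for 6 genes in the 3 GABAergic-like clusters, 1 point per rat (TBI red, sham blue, naïve grey). Gria1, Gria3 and Gria4 are highest in the Sst cluster in every rat, and Grin2a in the Lamp5 cluster.

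Granule-like nuclei formed 3 clusters, led by Robo3 and Plk5, by Niban3 and Ano2, and by Gcnt4, Wipf3 and Itga11. The Itga11 cluster had the most Gria1 (2034 ± 272 CPM, 1.40 times the Niban3 cluster) and the most Grin2a (1001 ± 96.0 CPM, 1.31 times) in 4 of 4 rats. The Niban3 cluster had the most Gria4, 1138 ± 71.9 CPM or 1.41 times the Itga11 cluster, and the most Grin2b (3584 ± 290 CPM, 1.12 times). Grin1 differed by 1.06 times between the highest and lowest granule cluster. The 2 clusters of other glutamatergic-like nuclei, led by Rspo2 and Neurod6 and by Fermt1 and Adamts2, were near each other except for Grin3a (16.3 ± 5.24 CPM in the Fermt1 cluster, 3.20 ± 3.91 in the Rspo2 cluster), Gria3 (1.24 times higher in the Fermt1 cluster) and Grin2a (1.21 times higher in the Rspo2 cluster). An unnamed cluster of 176 nuclei led by the activity genes Fosb and Nr4a2 had 4398 ± 557 CPM of Grin2b and 1350 ± 211 CPM of Gria3, both above the granule-like means.

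The second question was whether injury changed these messages in the tissue. In bulk, 8 of 9 members had a lower fitted level in TBI than in sham, where 50.6% of all 14166 genes were lower. For Gria1, Gria2, Gria3, Gria4, Grin2b and Grin3a the direction differed between earlier and later injury dates, as given below. The median log2 fold change was -0.18 over the members and -0.00 over all genes. No member passed the test. edgeR's quasi-likelihood test with Benjamini-Hochberg adjustment over all genes called 0 of 14166 genes (0%) at an adjusted p under 0.05, while 1360 (9.6%) had an unadjusted p under 0.05, and DESeq2 called 349 genes but 0 members. Of the members, 1 had an unadjusted p under 0.05: Grin2c.

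Gria1 measured 465, 365.5 and 383 CPM in sham 1, 2 and 3 and 413, 331 and 304 CPM in TBI 1, 2 and 3, a log2 fold change of -0.25 ± 0.15 (SE, adjusted p = 0.683). The groups overlapped through TBI 1. Gria2 measured 982, 698 and 710 CPM in sham and 836, 639 and 692 CPM in TBI (-0.18 ± 0.17, adjusted p = 0.807). Sham 1 and TBI 1, which were also the libraries with the most granule neuron markers, had the highest Gria2 and Gria3 of their groups. Gria3 lay between 184 and 265 CPM in sham and between 168 and 237 CPM in TBI, and Gria4 between 63.6 and 76.1 CPM in sham and between 51.8 and 77.5 CPM in TBI.

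Grin1 measured 644, 619 and 734 CPM in sham and 625, 602 and 531 CPM in TBI (-0.22 ± 0.12, adjusted p = 0.643). TBI 1 lay above sham 2. Grin2a measured 88.8, 102 and 76.6 CPM in sham and 83.3, 78.1 and 43.0 CPM in TBI, the lowest fold change of the members at -0.42 ± 0.25 (adjusted p = 0.676), which was -0.17 without TBI 3. That library also had the highest fibroblast marker sum of the 6 (826 CPM), whose part in the value was not tested. Grin2b measured 30.5, 41.8 and 22.8 CPM in sham and 31.2, 20.8 and 27.7 CPM in TBI (-0.29 ± 0.24, adjusted p = 0.771), with overlapping groups. Grin3a was low in all libraries, 3.999 to 7.743 CPM in sham and 4.15 to 7.37 CPM in TBI. CPM is scaled to a common library total, so a lower bulk level need not mean fewer neurons or less RNA per neuron. Bulk tissue cannot tell these apart. In the same libraries 9 of 9 measured astrocyte markers and 9 of 9 measured microglia markers had higher fitted levels in TBI, and their part in the lower members was not tested.

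Grin2c was the exception in direction. It measured 130, 114 and 94.0 CPM in sham 1, 2 and 3 and 162, 155 and 143 CPM in TBI 1, 2 and 3. All 3 TBI libraries lay above all 3 sham libraries, as TBI did for 11.7% of all genes. The log2 fold change was 0.41 ± 0.13 (edgeR, unadjusted p = 0.0153, adjusted p = 0.343), which did not pass the threshold. The libraries were also grouped here by the month of the injury date in the deposited metadata. The difference of mean log2(CPM + 0.5) was 0.41 before July (sham 1, sham 2 and TBI 1). It was 0.66 from July on (sham 3, TBI 2 and TBI 3). Grin1 (-0.01 and -0.38) and Grin2a (-0.19 and -0.40) were lower in TBI in both periods. Before July, Gria1 (0.003), Gria2 (0.01), Gria3 (0.10), Gria4 (0.15) and Grin3a (0.23) were not lower in TBI. From July on they were (-0.27, -0.095, -0.065, -0.13 and -0.45 in the same order). Grin2b went the other way, from -0.19 to 0.07.

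**Figure D3:**
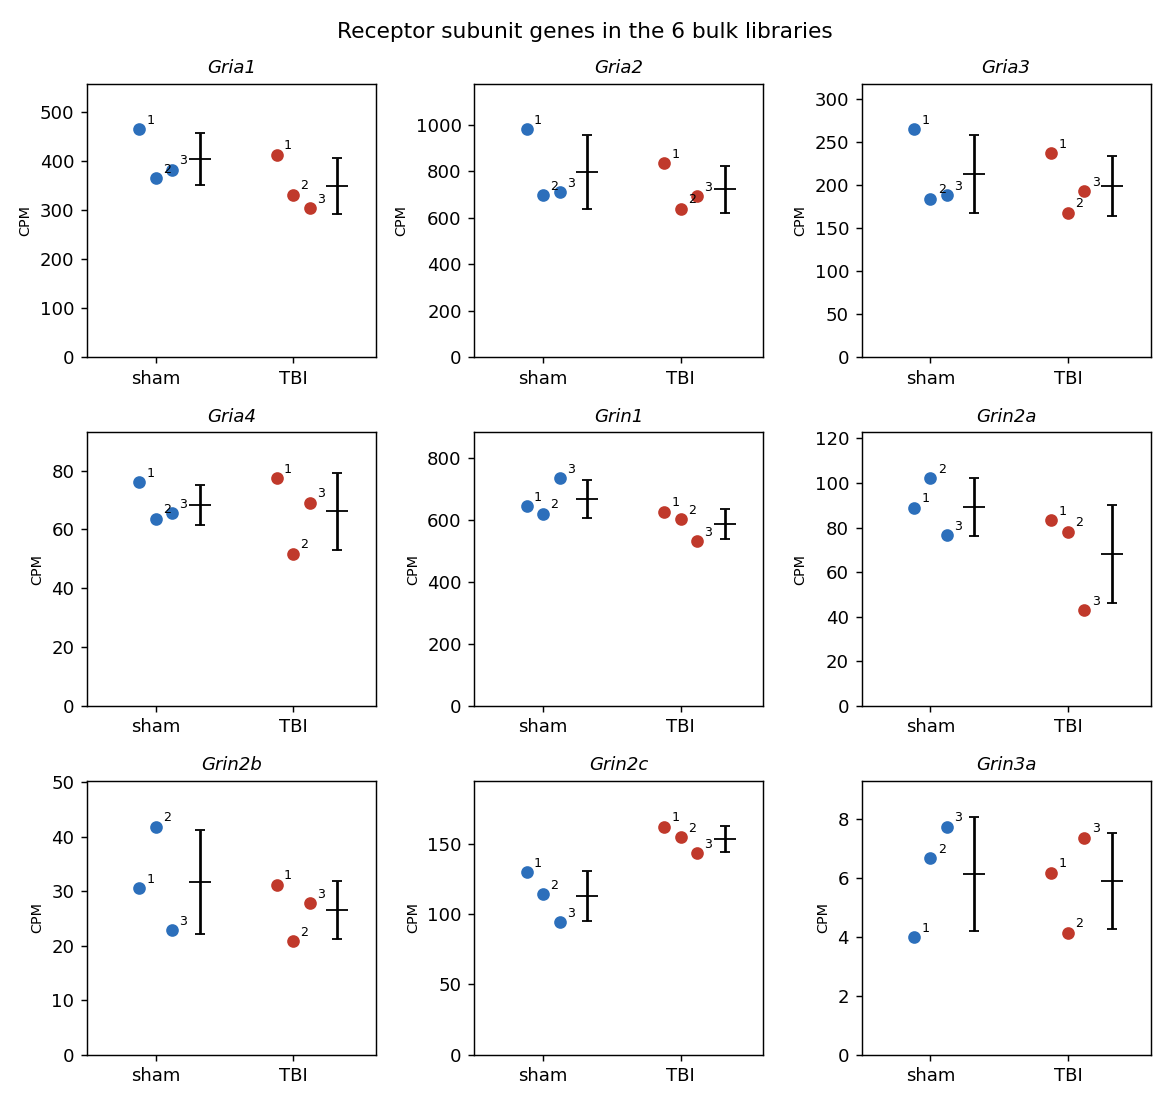
CPM of the 9 genes in the 6 bulk libraries (vertical axes from 0), with points numbered by replicate, sham in blue and TBI in red, and the mean with its SD (n = 3) beside each group. Only Grin2c shows 2 groups that do not overlap, with TBI at 143 to 162 CPM and sham at 94.0 to 130 CPM.

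The astrocyte markers moved in the same libraries. Of 9 measured, 9 were higher in TBI, and their summed level was 7753 to 10670 CPM in TBI and 4934 to 5625 CPM in sham, 0 of them at an adjusted p under 0.05 and 3 at an unadjusted p under 0.05. Gfap, the intermediate filament of reactive astrocytes, was 2583 to 5395 CPM in TBI and 891 to 1304 CPM in sham. As a share of that sum, Grin2c was 2.33%, 2.03% and 1.91% of the astrocyte marker sum in sham and 2.09%, 1.45% and 1.73% in TBI, and these ranges overlapped. That sum turned on Gfap. Without Gfap, a choice made after seeing the data, the markers summed to 4043 to 4422 CPM in sham and 4921 to 5676 CPM in TBI, and Grin2c was 2.93%, 2.64% and 2.33% of them in sham and 3.29%, 2.93% and 2.52% in TBI, overlapping again. The difference of the mean shares, TBI minus sham, was -0.33 percentage points with Gfap and 0.28 without it. In astrocyte-like nuclei the TBI and control values of Grin2c, given above, overlapped too (log2 fold change -0.19 ± 0.17, adjusted p = 0.698). Over all nuclei Grin2c was 58.3 and 60.0 CPM in TBI and 63.2 and 69.2 CPM in controls (-0.24 ± 0.15, adjusted p = 0.983). It was 1 of 3 members without overlap there, beside 33.6% of all genes. Astrocyte-like nuclei were 8.21% and 6.88% of the TBI libraries and 12.2% and 8.48% of the control libraries.

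The third question was whether the members differed with injury within a class of nuclei. In 9 classes with at least 50 nuclei in every rat, 77 tests of a member against 2 controls gave 0 calls at an adjusted p under 0.05 with edgeR, 4 at an unadjusted p under 0.05, and 1 call with DESeq2. Over all 86274 tests of a gene in those classes, 3.69% had an unadjusted p under 0.05 and DESeq2 called 0.297%, and in astrocyte-like nuclei alone DESeq2 called 2.03%. The 4 were in astrocyte-like and committed-oligodendrocyte-precursor-like nuclei, where 12.4% and 6.62% of all genes had an unadjusted p under 0.05.

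In granule-like nuclei the members stayed within the spread between rats. Fold changes ran from -0.13 (Gria4) to 0.12 (Grin1) on the log2 scale for the 7 members above a mean of 10 CPM, with a median over all 9 of 0.04 beside -0.01 over all 14058 genes tested. In this class 0 genes had an adjusted p under 0.05. Grin1 measured 705 and 704 CPM in the TBI rats, 670 in sham and 580 in naïve. It was the 1 of 9 members whose groups did not overlap, where 28% of all genes did not. Gria2 measured 2852 and 3389 CPM in TBI, 2824 in sham and 3279 in naïve, and Grin2b 3279 and 3610, 3026 and 3367, so that the 2 rats of each group differed more than the group means.

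The other neuronal classes gave the same picture. In other glutamatergic-like nuclei, Grin2b was the 1 of 9 members without overlap (2809 and 2993 CPM in TBI, 2635 and 2804 in controls, log2 fold change 0.04 ± 0.23), beside 26.5% of all genes. The Rspo2 cluster held most of that class in both TBI rats and sham, and the Fermt1 cluster in naïve. In GABAergic-like nuclei 8 of 9 members had lower fitted levels in TBI, where 52.3% of all genes did, with a median of -0.12 beside -0.01 over all genes. Of the 8, Gria2 (-0.05), Grin2a (-0.02) and Grin2b (-0.02) had higher mean CPM in TBI than in controls, so their direction depended on the scaling. Gria4 was 2248 and 2930 CPM in TBI and 2906 and 2849 in controls (-0.22 ± 0.19, adjusted p = 0.999), low in TBI 1 only. Grin3a was 76.4 and 71.5 CPM in TBI and 84.5 and 80.9 CPM in controls (-0.23 ± 0.17, adjusted p = 0.999), and with Grin2b, whose CPM was higher in TBI (2604 and 2616 against 2528 and 2512), it made 2 of 9 members without overlap beside 28.7% of all genes. In immature-neuron-like nuclei 7 members were tested, with Grin2b (2721 and 2898 CPM in TBI, 2963 and 2989 in controls) the 1 without overlap, beside 32.3% of all genes.

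In astrocyte-like nuclei the neuronal NMDA subunit messages were higher in both TBI rats. Grin1 was 503 and 446 CPM in TBI, 300 in sham and 238 in naïve, a log2 fold change of 0.76 ± 0.17 (edgeR, unadjusted p = 0.00256, adjusted p = 0.198, DESeq2 adjusted p = 0.00726). Grin2a was 534 and 467 CPM in TBI, 365 in sham and 270 in naïve (0.60 ± 0.19, adjusted p = 0.268). Grin2b was 2405 and 2334 CPM in TBI, 1793 in sham and 1827 in naïve (0.33 ± 0.14, adjusted p = 0.425), and Gria1 1208 and 1106 CPM in TBI, 946 in sham and 590 in naïve (0.53 ± 0.23, adjusted p = 0.405). Without the filter on low counts, edgeR called 651 genes in this class (3.46%), among them Grin1 (adjusted p = 4.26e-04), Grin2a (0.00974) and Gria1 (0.0215). In all, 6 of 9 members did not overlap, 5 of them higher in TBI, but neither did 44% of all 12589 genes tested in this class, and 2 of 9 members had an unadjusted p under 0.05. Grin3a was the member lower without overlap (20.2 and 8.59 CPM in TBI, 23.5 and 24.3 in controls).

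The reference genes of granule and general neurons moved in the same direction. All 7 had higher fitted levels in the astrocyte-like nuclei of TBI rats, with a median log2 fold change of 0.70, and 4 of them had an unadjusted p under 0.05. Slc17a7, the vesicular glutamate transporter of granule neurons, was 351 and 362 CPM in TBI, 193 in sham and 223 in naïve (0.72), and the granule neuron transcription factor Prox1 244 and 283, 144 and 166 (0.70). The astrocyte marker sum per rat was 4450 and 6774 CPM in TBI, 7155 in sham and 9020 in naïve. The mix of nuclei in this class differed between rats as well. At clustering resolution 1, the largest astrocyte-like cluster had fewer UMIs per nucleus, 0.601 times its library's median. It held 448 nuclei in TBI 1, 396 in TBI 2, 1298 in sham and 480 in naïve. All astrocyte-like nuclei at the main resolution numbered 1027, 990, 2073 and 957 in the same order. The parts of this mix and of captured neuronal RNA in the higher Grin1 and Grin2a of astrocyte-like nuclei were not tested.

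**Figure D4:**
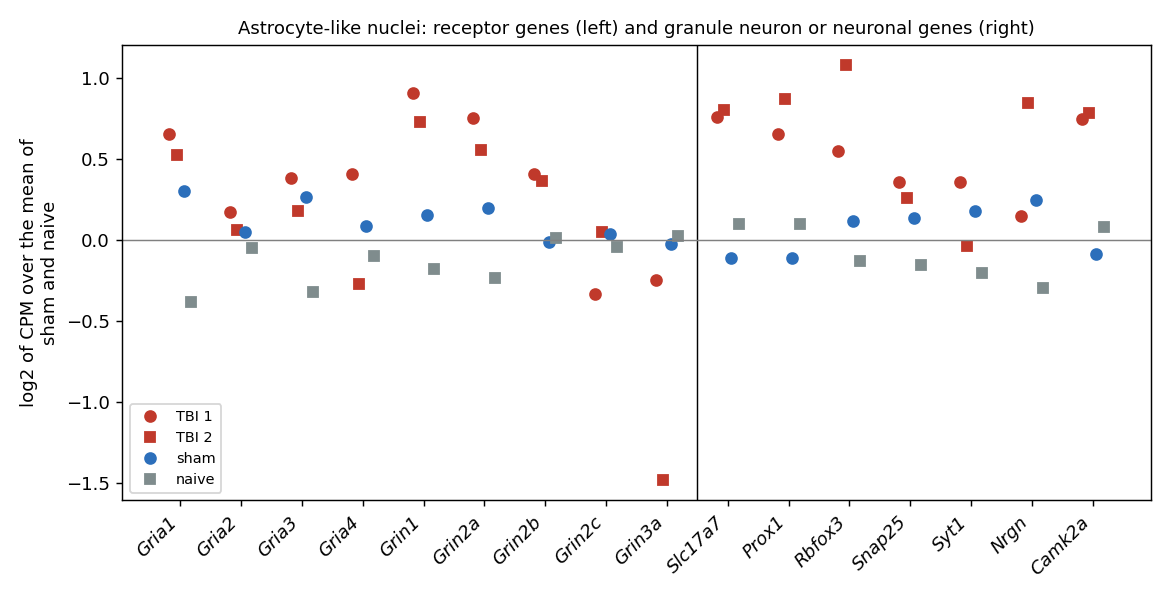
Astrocyte-like nuclei only: for each gene, the log2 ratio of a rat's CPM to the mean of sham and naïve (vertical axis), with the 9 receptor genes left of the line and the 7 granule or general neuron reference genes right of it (TBI red, sham blue, naïve grey). Grin1, Grin2a, Grin2b and Gria1 lie above 0 in both TBI rats, as do Slc17a7, Prox1, Rbfox3 and Camk2a.

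In committed-oligodendrocyte-precursor-like nuclei (56 to 113 nuclei per rat), Grin2b was 1485 and 1613 CPM in TBI, 876 in sham and 835 in naïve (0.81 ± 0.26, unadjusted p = 0.00671, adjusted p = 0.737), and Grin1 389 and 304, 209 and 158 (0.86 ± 0.34, adjusted p = 0.737). Of 7 members tested 5 did not overlap, beside 36.5% of all genes, and 6 of 6 reference genes tested were higher in TBI with a median of 0.42. In oligodendrocyte-precursor-like nuclei, Gria4 was 1189 and 1232 CPM in TBI and 1333 and 1525 in controls (-0.28 ± 0.19, adjusted p = 0.996), and Grin3a had its highest value in naïve (390 CPM), so that its fold change of -0.42 ± 0.26 rested on that rat and was 0.02 without it. The reference genes were higher in TBI in 7 of 7 cases there, with a median of 0.21. Across those nuclei 3 of 9 members did not overlap, beside 32.1% of all genes. In oligodendrocyte-like nuclei the 9 fold changes had a median of 0.02 and 3 did not overlap (31.2% of all genes), and in microglia-like nuclei a median of 0.20 with 1 not overlapping (30.4% of all genes). The reference genes had medians of 0.07 and 0.18 in these 2 classes. Without the sham rat, the edgeR fold change of Gria1 was 0.83 in oligodendrocyte-precursor-like and 0.94 in microglia-like nuclei. That fit set both TBI rats against the naïve rat alone, which had the lowest Gria1 in both classes, and it assumes that this rat varies like the others.

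**Figure D5:**
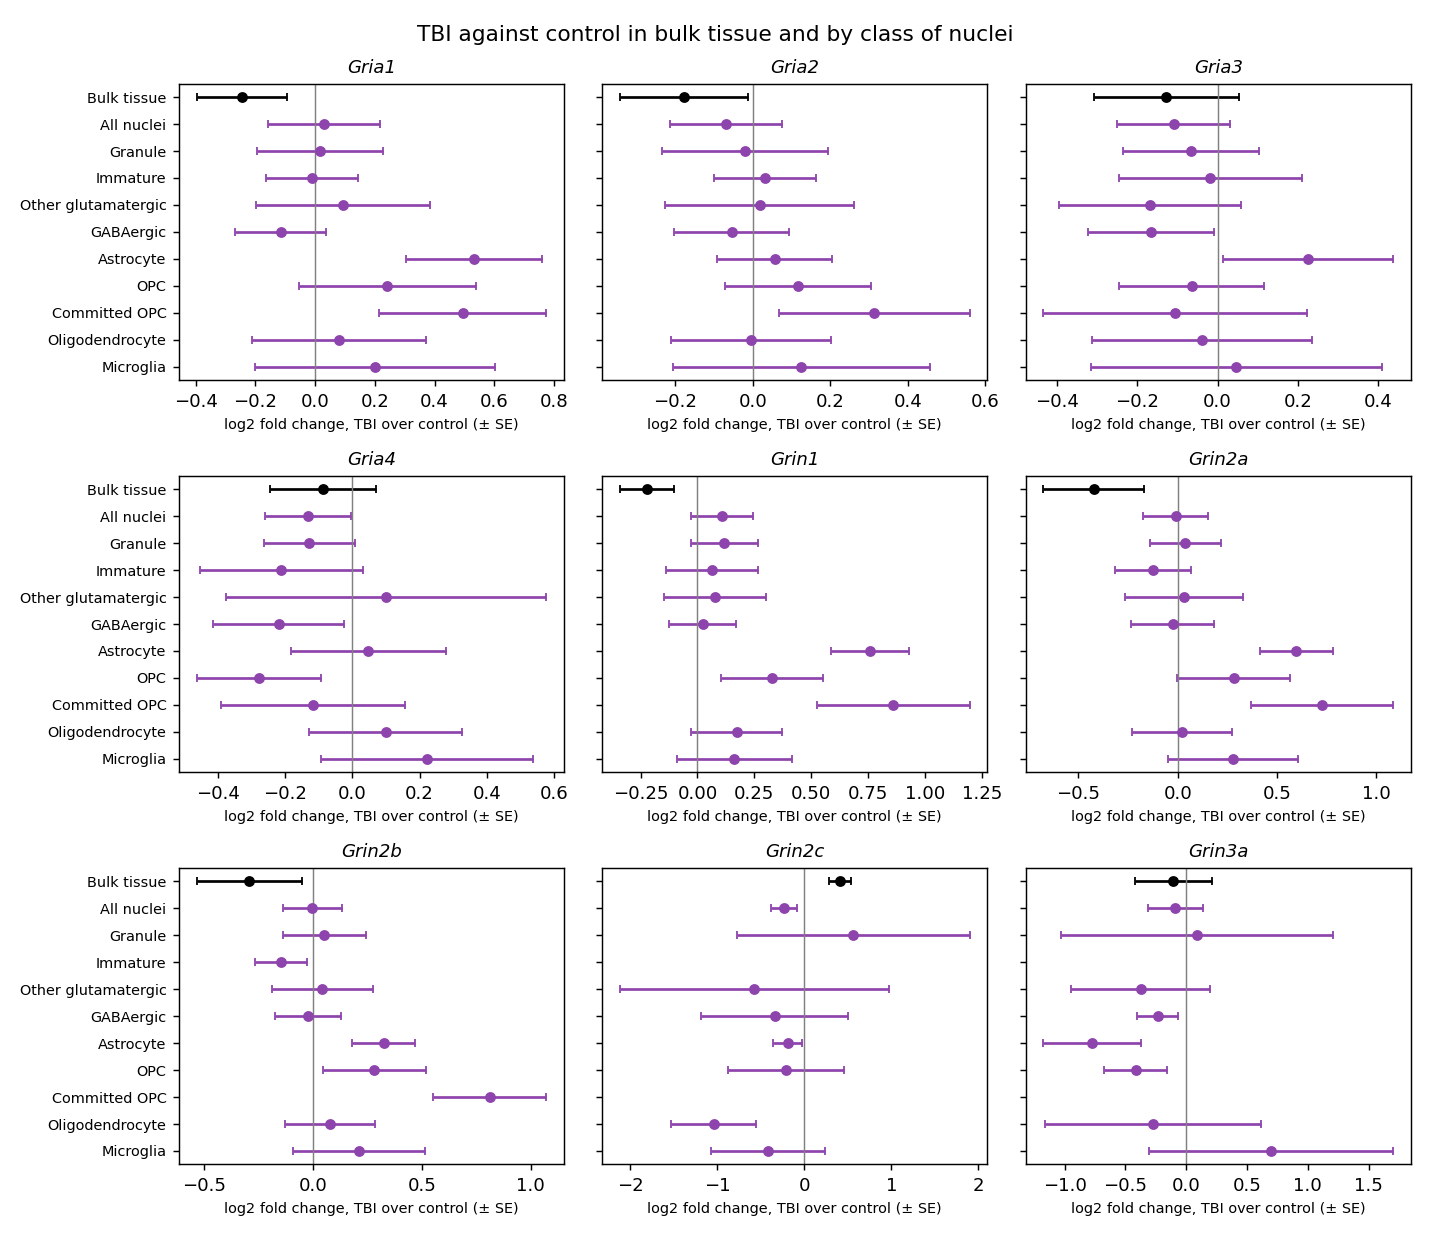
Log2 fold change of TBI over control (horizontal axis, bars are ± SE) for each gene in bulk tissue (black, 3 against 3 rats), in all nuclei and in 9 classes of nuclei (purple, 2 against 2 rats). Genes filtered out of a class have no point. The bulk value is above 0 for Grin2c alone, and among the broad neuronal members Grin1 lies farthest above 0, in committed-oligodendrocyte-precursor-like (0.86) and astrocyte-like nuclei (0.76).

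The balance of Grin2a and Grin2b messages was compared between rats as the share of Grin2a among the UMIs of both, which is no ratio of molecules because gene length enters it. In granule-like nuclei the share was 20.9% and 19.6% in TBI, 23.5% in sham and 17.4% in naïve, a difference of means of -0.21 percentage points (exact permutation test over rats, two-sided, p = 1, n = 2 in each group). The sham and naïve rats marked both ends of that range, with the TBI rats between them. Sham was also highest and naïve lowest in other glutamatergic-like nuclei, with 18.3% and 20.4% in TBI, 23.8% in sham and 15.3% in naïve (p = 1 in the same exact test), and in GABAergic-like nuclei, with 15.4%, 16.0%, 18.5% and 12.9% (p = 1). Among the 9 classes the difference was largest in astrocyte-like nuclei, with 18.2% and 16.7% in TBI, 16.9% in sham and 12.9% in naïve, a difference of 2.53 percentage points (exact test, p = 0.667) with overlapping groups. With 2 rats against 2 the smallest p this test can give is 0.333. In bulk, the share of Grin2a in the estimated counts of both averaged 70.9% (SD 9.26) over 3 TBI rats and 74.2% (SD 3.04) over 3 sham rats (exact two-sided permutation test, p = 0.8, where 0.1 is the smallest possible), with TBI 3 lowest at 60.8% and TBI 2 highest at 79.0%.

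The genes of partner proteins of these receptors had no call either. Of 14 measured genes of auxiliary and biogenesis proteins of the AMPA receptor, 13 had lower fitted levels in bulk TBI (median -0.14), 0 of them at an adjusted p under 0.05. The 2 with the smallest p were Shisa6, an auxiliary subunit (-0.46 ± 0.23, adjusted p = 0.621), and Cacng7, a member of the TARP family (-0.19 ± 0.10, adjusted p = 0.631). Of 19 scaffold and trafficking genes, 15 were lower (median -0.15), led by Dlgap1, which links postsynaptic scaffolds (-0.29 ± 0.11, unadjusted p = 0.0276, adjusted p = 0.417), and Homer1 (-0.32 ± 0.14, adjusted p = 0.533). Dlgap1 was 324, 310 and 323 CPM in sham and 294, 268 and 242 CPM in TBI, without overlap. All TBI libraries lay below all sham libraries for 2 of the 19 scaffold genes, 1 of the 14 auxiliary genes and 3.05% of all genes.

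All 11 measured kainate, delta and remaining NMDA receptor and kainate auxiliary genes were lower (median -0.12), the smallest p being those of the kainate receptor subunits Grik1 (-0.28 ± 0.18, adjusted p = 0.694) and Grik4 (-0.36 ± 0.29, adjusted p = 0.766). All 6 genes of co-agonist supply, signalling and editing were lower too (median -0.16), with Srr, the serine racemase that makes D-serine (-0.26 ± 0.12, adjusted p = 0.553), and Adarb1, which edits Gria2 transcripts (-0.23 ± 0.12, adjusted p = 0.643), both without overlap, beside 3.05% of all genes. The counts of lower genes stand beside 50.6% of all genes lower in bulk TBI, and beside 6 of 6 measured reference genes of neurons that were lower, with a median of -0.20. In granule-like nuclei the directions were mixed: 8 of 13 auxiliary genes, 12 of 19 scaffold genes, 4 of 10 other receptor genes and 4 of 6 co-agonist and editing genes had higher fitted levels in TBI, none at an adjusted p under 0.05 with edgeR, where 3 genes of these lists, singled out after their values were seen, had an unadjusted p under 0.05 beside 1.14% of all genes. They were Nsmf (0.60), a messenger from synapse to nucleus, the neuronal nitric oxide synthase Nos1 (0.63) and the auxiliary subunit gene Shisa7 (0.43).

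Other genes with a like pattern were sought over 44 sums (11 classes in 4 rats) by Pearson's r of log2(CPM + 1), which is a description over sums that share libraries, depth and free RNA. Gria1 was nearest to Cacna1b (r = 0.961) and Tenm2 (0.95), and Gria2 to Kcnk10 (0.91) and Cacna1e (0.907). Grin1 and Grin2b were each other's nearest gene (0.949), and Grin2a was nearest to Lrrc7 (0.925) and Syn2 (0.921). Grin2c was nearest to the astrocyte genes Sparcl1 (0.885), Prex2 (0.884) and Fam107a (0.881), and Gria4 to Gpc6 (0.839). Grin3a had its highest correlation with the unnamed transcript AABR07044668.1 (0.845), one of the 10 leading genes of the oligodendrocyte-precursor-like clusters, and next Cntn6 (0.837).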

How the data were processed

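Bulk libraries were quantified by the authors with kallisto against Rnor_6.0, and the deposited estimated counts are per transcript. A second table holds the log2 CPM the authors deposited, from those estimates summed per Entrez gene, with genes of low count or variance left out. Gene counts were worked back from the log2 values and library totals and rounded, and 13778 of 14166 identifiers had a RefSeq symbol. The nucleus matrices hold deposited UMI counts from Cell Ranger over exons and introns, with the filtered barcodes of each rat. Here nuclei with at least 500 UMIs, 300 genes, log10 genes per UMI of 0.8, at most 5% mitochondrial and 2% ribosomal UMIs were kept, and clustered with Seurat 5.3.0 (2000 variable features less the 5 members among them, 25 components, resolution 0.6). A cluster was named where at least 3 markers passed a 1.25-fold excess and led the next class by 0.3 (log2). Clusters led by mitochondrial genes, or whose 10 leading genes held more markers of another class than of their own, stayed unnamed, as did those with low UMI counts and no marker of their own among those genes. These naming thresholds were set after seeing the data, and class names, rebuilt here, may differ from the study's. Scrublet (scanpy 1.11.5) called 0, 0, 387 and 0 nuclei in TBI 1, TBI 2, sham and naïve, so its threshold did not work, and nuclei with the top scores were left out only as an alternative.

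Groups followed the labels. UMI sums per rat and class, and bulk counts, were tested with edgeR 4.0.16 (quasi-likelihood, TMM, R 4.3.3), Benjamini-Hochberg adjusted over all genes tested, called under 0.05. DESeq2 1.42.0, limma 3.58.1, other scaling and filters, a replicate block, the injury date (before July or later) and leaving out each rat were alternatives. The tests were checked on simulated data, where edgeR at a log2 change of 2 recovered 84 of 100 changed genes in bulk, 85 in astrocyte-like and 44 in granule-like nuclei, and at a log2 change of 1 recovered 39, 41 and 12. Of the unchanged genes, edgeR called 11, 20 and 5 and DESeq2 58, 15 and 57. The members were named in every tested class, and of 4 lists of related genes the 2 with the smallest bulk p each. Other genes were named after their values were seen. Members and lists were chosen with earlier results of these data known. No column of another sample was present (0 unused). Intervals and p-values cover the spread between these rats only.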

Additional observations from a re-analysis of the deposited data

How the results depend on the processing

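With 2 rats against 2, or 3 against 3, the members' fold changes in neurons were of the size of the spread between rats, and Grin2c and Grin3a rested on few UMIs outside the classes that held them. No member passed the threshold in bulk under any alternative run. In nuclei, the exceptions were the calls in astrocyte-like nuclei given above. Gria1 in oligodendrocyte-precursor-like and microglia-like nuclei was a further exception only in the fit without the sham rat, which left 1 control. The cause of the changes below was not tested. In bulk, DESeq2 called 349 genes. The fit with a replicate block called 61 genes, but the numbers did not pair the rats (correlations of same-numbered libraries 0.42, 0.272 and -0.043), and it called no member. No paired analysis was possible for the nuclei because sham and naïve had 1 rat each. In nuclei, DESeq2 called 255 genes in astrocyte-like, 1 in oligodendrocyte-like and 6 in all nuclei. Without the filter on low counts, edgeR called 6 genes in immature-neuron-like, 47 in other glutamatergic-like, 13 in GABAergic-like, 651 in astrocyte-like, 18 in oligodendrocyte-like and 20 in microglia-like nuclei, and the fold changes of GABAergic-like Grin2b (0.00086) and oligodendrocyte-like Gria2 (0.016) changed sign. With a minimum of 1000 UMIs, sign changes were immature-neuron-like Gria1 (0.025), oligodendrocyte-like Gria2 (0.20) and Gria3 (0.16), microglia-like Gria2 (-0.057) and Gria3 (-0.060) and the Grin2a share of committed-oligodendrocyte-precursor-like nuclei (1.73 points). Levels there rose in oligodendrocyte-like nuclei to 2111 CPM for Gria2, 373 for Grin1, 497 for Grin2a and 2103 for Grin2b, and in microglia-like nuclei to 1455 for Gria1, 2675 for Gria2, 575 for Grin1, 699 for Grin2a and 2832 for Grin2b. At clustering resolution 1, oligodendrocyte-like Gria2 was 0.034 and Gria3 0.0052. Without the top doublet scores, granule-like Grin3a was -0.056, and oligodendrocyte-like Gria2 0.22 and Gria3 0.11. Leaving Gfap out of the astrocyte markers in bulk, chosen after seeing the data, turned the difference in the Grin2c share of their sum (-0.33 percentage points) to 0.28. Leaving out the high-UMI glial clusters, also chosen after seeing the data, gave fold changes of 0.041 for oligodendrocyte-precursor-like Gria3 and of 0.26 and 0.25 for oligodendrocyte-like Gria2 and Gria3. It lowered levels in oligodendrocyte-precursor-like nuclei to 548 CPM for Gria1, 2184 for Gria2, 180 for Grin1, 181 for Grin2a and 722 for Grin2b and raised Grin3a to 373. In oligodendrocyte-like nuclei it gave 518 for Gria1, 1326 for Gria2, 350 for Gria3, 452 for Gria4, 133 for Grin1, 211 for Grin2a and 736 for Grin2b, and in microglia-like nuclei 655 for Gria1, 1679 for Gria2, 203 for Grin1, 268 for Grin2a and 999 for Grin2b. With 1 rat left out at a time, log2 fold changes that changed sign ran as follows. In bulk the range was Gria3 -0.28 to 0.049, Gria4 -0.22 to 0.039 and Grin3a -0.34 to 0.093. In granule-like nuclei the range was Gria1 -0.20 to 0.26, Gria2 -0.24 to 0.15, Gria3 -0.22 to 0.048, Grin2a -0.13 to 0.22, Grin2b -0.10 to 0.17, Grin2c -1.03 to 3.75 and Grin3a -1.31 to 2.24. In immature neuron-like nuclei the range was Gria1 -0.23 to 0.23, Gria2 -0.13 to 0.23, Gria3 -0.41 to 0.41, Gria4 -0.69 to 0.17, Grin1 -0.25 to 0.39 and Grin2a -0.33 to 0.066. In other glutamatergic-like nuclei the range was Gria1 -0.18 to 0.44, Gria2 -0.17 to 0.20, Gria3 -0.41 to 0.057, Gria4 -0.51 to 0.82, Grin1 -0.12 to 0.32, Grin2a -0.27 to 0.42, Grin2b -0.1 to 0.19, Grin2c -7.47 to 1.64 and Grin3a -0.79 to 0.24. In GABAergic-like nuclei the range was Gria2 -0.11 to 0.0014, Grin1 -0.061 to 0.14, Grin2a -0.27 to 0.30, Grin2b -0.061 to 0.016 and Grin2c -2.46 to 0.45. In astrocyte-like nuclei the range was Gria2 -0.0089 to 0.099, Gria3 -0.039 to 0.54 and Gria4 -0.34 to 0.33. In oligodendrocyte precursor-like nuclei the range was Gria1 -0.18 to 0.83, Grin2a -0.12 to 0.84, Grin2c -0.74 to 0.71 and Grin3a -0.76 to 0.018. In committed oligodendrocyte precursor-like nuclei the range was Gria3 -0.49 to 0.44. In oligodendrocyte-like nuclei the range was Gria1 -0.30 to 0.61, Gria2 -0.091 to 0.091, Gria3 -0.40 to 0.46, Gria4 -0.095 to 0.33, Grin2a -0.23 to 0.34 and Grin3a -1.42 to 1.05. In microglia-like nuclei the range was Gria1 -0.28 to 0.94, Gria2 -0.12 to 0.43, Gria3 -0.39 to 0.69, Gria4 -0.066 to 0.60, Grin1 -0.019 to 0.33, Grin2a -0.084 to 0.78, Grin2c -0.93 to 0.47 and Grin3a -0.23 to 6.51. In all nuclei the range was Gria1 -0.21 to 0.32, Gria2 -0.15 to 0.023, Gria3 -0.23 to 0.035, Grin1 -0.014 to 0.25, Grin2a -0.21 to 0.22, Grin2b -0.061 to 0.067 and Grin3a -0.25 to 0.096. The difference in the Grin2a share ran from -3.31 to 2.89 in granule, -2.05 to 1.91 in immature neuron, -4.46 to 4.08 in other glutamatergic, -2.78 to 2.79 in GABAergic, -1.36 to 2.46 in oligodendrocyte precursor, -5.66 to 5.01 in committed oligodendrocyte precursor, -2.92 to 1.98 in oligodendrocyte, -2.12 to 4.39 in microglia, -3.12 to 2.91 in all nuclei and -7.39 to 1.72 in bulk (percentage points). Counts of genes at an adjusted p under 0.05, 0 in each comparison, ran from 0 to 1 in bulk, 0 to 27 in granule, 0 to 54 in immature neuron, 0 to 134 in other glutamatergic, 0 to 22 in GABAergic, 0 to 4 in astrocyte, 0 to 62 in oligodendrocyte precursor, 0 to 94 in committed oligodendrocyte precursor, 0 to 22 in oligodendrocyte, 0 to 132 in microglia and 0 to 113 in all nuclei.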

Other observations

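An unnamed cluster of 754 nuclei led by Htr2c, Rph3al and Glra3 had 1286 ± 186 CPM of Gria4 and 74.5 ± 53.3 CPM of Grin3a (mean ± SD of 4 rats). Grin3a measured 72.0 CPM in TBI 1, 114 in TBI 2, 112 in sham and 0 in naïve. These rest on 71, 6, 126 and 0 UMIs in the same order, so the values of TBI 2 and naïve say little.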
